A study of Equus caballus with 18 samples.

Results

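The 18 skeletal muscles of 1 Jeju horse fell into 5 muscles with little MYH1 transcript and 13 with much, and both sets were compared across all other genes. MYH1 encodes a fast myosin heavy chain. The muscles were chosen by the MYH1 level itself, measured in CPM, a read count relative to the library total, after TMM scaling, a correction for differences in library composition. The 5 muscles below 1000 CPM, called MYH1-low, were the rhomboideus, omohyoideus, trapezius, extensor digitorum communis and extensor digitorum lateralis. The other 13 of the 18, called MYH1-high, were the triceps brachii, biceps brachii, infraspinatus, supraspinatus, extensor carpi radialis, longissimus, semitendinosus, gluteus superficialis, extensor digitorum longus, pectoralis major and the vertebral, middle and caudal parts of the biceps femoris.

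All muscles came from the same animal of this breed from Jeju, none was treated, and each gave 1 library of RNA depleted of ribosomal RNA. The spread between libraries is therefore a spread between muscles, or between parts of 1 muscle for the 3 libraries of the biceps femoris, and may include technical error. These 3 libraries share a muscle but are counted as separate units among the 13. The study had divided the muscles into main groups A and B by clustering the same counts. Main group A held 3 MYH1-low and 6 MYH1-high muscles, and B held 2 and 7. The MYH1-low muscles are those of the subgroups A2 and B2 of that clustering. They comprise 3 muscles of the neck and shoulder girdle and 2 extensors of the digits, so anatomical position differs in part along with the MYH1 level, although the MYH1-high muscles also hold the extensor digitorum longus and the pectoralis major. Of the 5, 4 came from the forequarter, against 6 of the 13 MYH1-high muscles.

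Muscle fibres differ in the myosin they carry. Slow fibres use the MYH7 myosin and slow forms of troponin, calcium pump and calsequestrin, and draw much of their energy from oxidation in mitochondria. Fast fibres use other myosins with the fast forms of these proteins, and the fastest rely largely on glycolysis. A whole muscle mixes fibres, and in such bulk RNA fewer fibres of a type and less RNA per fibre cannot be told apart.

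MYH1 stood at 132 CPM in the rhomboideus, 162 in the trapezius, 295 in the omohyoideus, 307 in the extensor digitorum communis and 481 in the extensor digitorum lateralis. The MYH1-high muscles ranged from 2316 to 28093 CPM with a median of 10727. The value just inside the limit was the 481 CPM of the extensor digitorum lateralis, and those just outside were 2316 CPM in the extensor digitorum longus and 2562 CPM in the gluteus superficialis. The highest level belonged to the extensor carpi radialis, which like the extensor digitorum communis lies on the front of the forearm. These values set the groups and carry no test. Myosin heavy chain genes are similar in sequence and reads may be shared among them, so the MYH1 and MYH7 levels are uncertain to that extent.

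**Figure D1:**
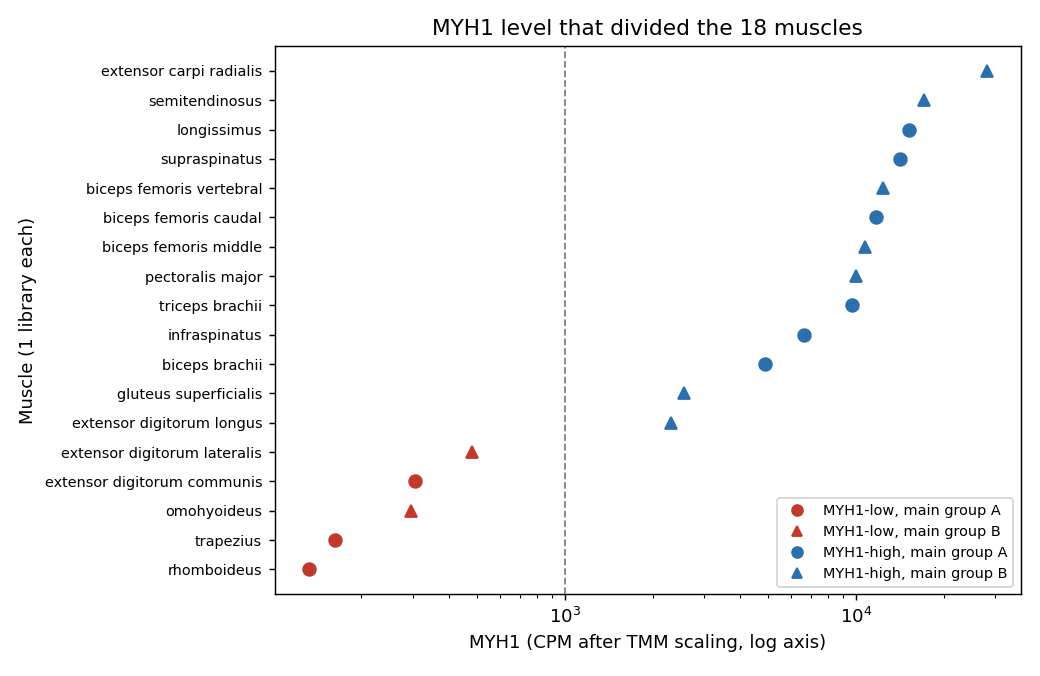
MYH1 level (CPM after TMM scaling, log axis) in each of the 18 muscles, 1 library each, with the dashed line at the limit of 1000 CPM. The 5 MYH1-low muscles lie between 132 and 481 CPM and the 13 MYH1-high muscles between 2316 and 28093 CPM.

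Totals of counts on genes were 31395013 to 45124868 in the MYH1-low and 33537488 to 50508515 in the MYH1-high libraries. The single most abundant gene took from 24.1% of the counts in the rhomboideus, an MYH1-low muscle, to 39.1% in the middle biceps femoris, an MYH1-high one. TMM factors overlapped as well, at 0.834 to 1.42 and 0.820 to 1.41. Names could be attached to 52 of the identifiers in the table, MYH1 among them. They include NOS3, the endothelial nitric oxide synthase, but no list of markers of fat, vessel, connective tissue or immune cells was analysed here. The part of these cells in the differences was not tested.

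Of 13335 genes tested besides MYH1, 737 were differentially expressed genes (DEGs), which is 5.53% of the genes tested. A DEG had an adjusted p below 0.05 in edgeR's quasi-likelihood test, with main group as covariate, and an absolute log2 fold change (log2FC) above 0.58. All log2FC values are given as MYH1-low minus MYH1-high. By direction, 372 DEGs (2.79%) were higher and 365 (2.74%) lower in the MYH1-low muscles, and the median log2FC over all genes tested was -0.02. In 81 genes (0.607%) all 5 MYH1-low muscles lay below all 13 MYH1-high muscles, and in 46 (0.345%) they lay above. Since the groups were formed from the same libraries, the p-values only describe the difference relative to the spread between muscles. They give no evidence beyond this horse. The count rests on single muscles, as it was 259 without the extensor digitorum lateralis and 420 without the extensor digitorum communis.

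Of the 51 named genes besides MYH1, 20 were lower DEGs, against 2.74% of all genes tested, and 6 were higher DEGs, against 2.79%. Without any overlap, 13 were below, against 0.607%, and 1 above, against 0.345%. The names come from gene lists that the study displayed, and several of these were picked on the same libraries. The shares among named genes are therefore not comparable with a list picked elsewhere.

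**Figure D2:**
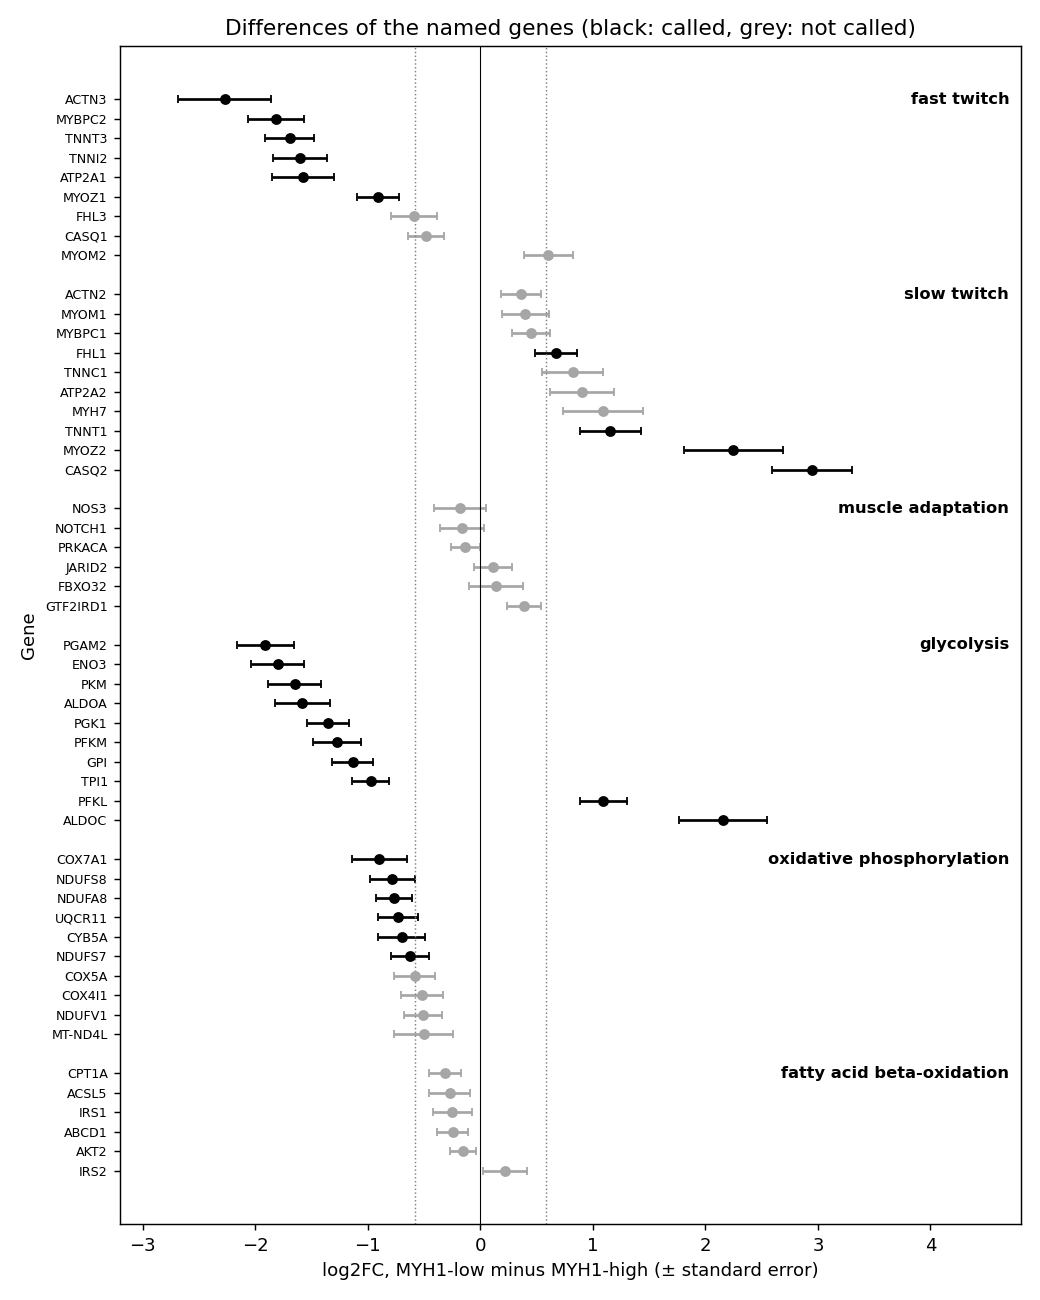
log2FC of 51 named genes, MYH1-low minus MYH1-high, with its standard error from edgeR, grouped by gene list, with DEGs in black and dotted lines at an absolute log2FC of 0.58. The values run from -2.27 for ACTN3 to 2.95 for CASQ2, and the DEGs lie in the fast twitch, slow twitch, glycolysis and oxidative phosphorylation lists.

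Fast contractile genes were lower in the MYH1-low muscles. Of the 9 fast twitch genes tested, 6 were lower DEGs, against 2.74% of all genes tested, none was a higher DEG and 3 did not pass. The median log2FC of the 9 was -1.58. MYH1, whose level set the groups, belongs to this list too, so the count is no independent evidence of its direction. Within main group B alone 0 of the 9 passed, with a median of -1.018. Without the 3 MYH1-low muscles of A 0 passed, with a median of -1.015. That fit leaves A no MYH1-low muscle, so its contrast also comes from B alone and is no separate check. The mean log2 CPM of the 9 genes lay between 8.75 and 9.0 in the MYH1-low muscles. In the MYH1-high muscles it lay between 9.39 and 10.38, with no overlap.

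TNNT3, the fast form of troponin T, which anchors the troponin complex on the thin filament, stood at 641 CPM in the rhomboideus, 609 in the trapezius, 1006 in the extensor digitorum communis, 1334 in the omohyoideus and 1787 in the extensor digitorum lateralis. The MYH1-high muscles ran from 1794 over a median of 3487 to 5122 CPM. The groups did not overlap, but only just, since the lowest MYH1-high muscle, the biceps brachii, stood beside the extensor digitorum lateralis. The log2FC was -1.70 (SE 0.22, adjusted p = 0.000145 from edgeR). TNNI2, fast troponin I, the inhibitory subunit, behaved alike in these muscles, with 322 to 855 CPM against 856 to 3144 CPM and a log2FC of -1.61 (SE 0.24, adjusted p = 0.000491 from edgeR).

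MYBPC2, the fast myosin binding protein C of the thick filament, was at 626 ± 134 CPM (SD, n = 5) against 2207 ± 663 CPM (SD, n = 13). Its log2FC was -1.82 (SE 0.25, adjusted p = 0.000211 from edgeR) and its ranges, 469 to 806 and 1371 to 3175 CPM, lay well apart. ATP2A1, the calcium pump of the fast sarcoplasmic reticulum, was at 587 CPM in the rhomboideus and 636 in the trapezius, and at 1094 to 1639 CPM in the other MYH1-low muscles. The MYH1-high muscles held 2049 to 5448 CPM of ATP2A1, and the log2FC was -1.58 (SE 0.28, adjusted p = 0.00196 from edgeR).

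ACTN3, the alpha-actinin of fast Z-discs, had the most negative log2FC of the named genes, -2.27 (SE 0.41, adjusted p = 0.00222 from edgeR). It stood at 169 CPM in the rhomboideus, 171 in the trapezius, 128 in the extensor digitorum communis, 114 in the omohyoideus and 47.3 in the extensor digitorum lateralis, against 185 to 1218 CPM in the MYH1-high muscles. The order of the MYH1-low muscles was not the same from gene to gene. The extensor digitorum lateralis was the highest of the 5 for MYH1, TNNT3 and TNNI2 and the lowest for ACTN3. MYOZ1, a Z-disc protein of fast fibres that binds calcineurin, was lower with overlapping ranges, 400 to 680 against 640 to 1402 CPM, and a log2FC of -0.91. Neither ACTN3 nor MYOZ1 passed within main group A (adjusted p = 0.0538 and 0.111 from edgeR) or B (adjusted p = 0.109 and 0.266). Nor did they without the 3 MYH1-low muscles of A (adjusted p = 0.0849 and 0.198 from edgeR) or the 2 MYH1-low extensors (adjusted p = 0.0583 and 0.0855).

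The remaining fast twitch genes did not pass. CASQ1, the fast calsequestrin that stores calcium, had a log2FC of -0.48 (adjusted p = 0.0708 from edgeR), and FHL3, a LIM domain protein, one of -0.59 (adjusted p = 0.0798). MYOM2, an M-band protein, pointed the other way with 507 to 1875 CPM in the MYH1-low and 296 to 910 CPM in the MYH1-high muscles. Its log2FC was 0.60 (SE 0.22, adjusted p = 0.0964 from edgeR), and it was a DEG in DESeq2 with a log2FC of 0.62, and in edgeR without the omohyoideus (adjusted p = 0.0358) or the extensor carpi radialis (adjusted p = 0.0482). FHL3 was a DEG without the omohyoideus (adjusted p = 0.0355 from edgeR). The rhomboideus alone had 1875 CPM of MYOM2. The omohyoideus, at 507 CPM, and the extensor digitorum lateralis, at 791 CPM, lay inside the range of the MYH1-high muscles.

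Slow contractile genes were higher in part. Of 10 slow twitch genes, 4 were higher DEGs, against 2.79% of all genes tested, none was a lower DEG and 6 did not pass. The log2FC was nevertheless above 0 for all 10 genes and had a median of 0.86. Their mean log2 CPM lay between 9.99 and 10.90 in the MYH1-low and between 8.43 and 10.06 in the MYH1-high muscles, with the omohyoideus below the infraspinatus as the only overlap. Within main group B alone 1 of the 10 genes passed. Without the 3 MYH1-low muscles of A 2 passed, and without the 2 MYH1-low extensors 2 passed.

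CASQ2, the slow and cardiac calsequestrin, stood at 29.0 CPM in the rhomboideus, 20.1 in the trapezius, 20.9 in the extensor digitorum communis, 25.3 in the omohyoideus and 97.5 in the extensor digitorum lateralis. The MYH1-high muscles ran from 1.92 over a median of 5.49 to 8.58 CPM, which is 78 to 314 counts a library. It was the only named gene in which every MYH1-low muscle lay above every MYH1-high muscle, and its log2FC was 2.95 (SE 0.36, adjusted p = 7.29e-05 from edgeR). Without the extensor digitorum lateralis it was 2.17 and CASQ2 remained a DEG. The log2FC was 1.93 within main group A and 3.95 within B, which holds the extensor digitorum lateralis, and the test of this difference in edgeR gave an unadjusted p of 0.00361 but did not pass after adjustment.

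MYOZ2, the slow relative of MYOZ1, was at 893 CPM in the extensor digitorum lateralis, 411 in the rhomboideus, 364 in the trapezius, 323 in the extensor digitorum communis and 167 in the omohyoideus. The MYH1-high muscles held 11.7 to 265 CPM, so that the omohyoideus lay below the infraspinatus. The log2FC was 2.25 (SE 0.44, adjusted p = 0.00403 from edgeR), and without the extensor digitorum lateralis it fell to 1.56 and was no longer a DEG. MYOZ2 was also no DEG within main group A (adjusted p = 0.0825 from edgeR), within B (adjusted p = 0.0953) or without the 2 MYH1-low extensors (adjusted p = 0.145). TNNT1, slow troponin T, had a log2FC of 1.15 (SE 0.27, adjusted p = 0.0134 from edgeR), with 918 to 1938 against 279 to 1202 CPM. It was likewise no DEG without the extensor digitorum lateralis. TNNT1 also did not pass within B (adjusted p = 0.416 from edgeR), without the 3 MYH1-low muscles of A (adjusted p = 0.264) or without the 2 MYH1-low extensors (adjusted p = 0.114). FHL1, a LIM domain protein of slow fibres, had a log2FC of 0.67 (SE 0.18, adjusted p = 0.0314 from edgeR) and overlapping ranges of 2001 to 3036 and 971 to 2262 CPM, and was no DEG without the trapezius, the extensor digitorum communis or the extensor digitorum lateralis. Over all 18 muscles FHL1 was no DEG with no covariate (adjusted p = 0.0545 from edgeR), with body region as covariate (adjusted p = 0.0549) or with no filter on low counts (adjusted p = 0.0608). Nor did FHL1 pass within main group A (adjusted p = 0.211 from edgeR), within B (adjusted p = 0.416), without the 3 MYH1-low muscles of A (adjusted p = 0.339) or without the 2 MYH1-low extensors (adjusted p = 0.269).

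MYH7, the slow myosin heavy chain itself, did not pass, with a log2FC of 1.09 (SE 0.36, adjusted p = 0.0651 from edgeR). It stood at 25255 CPM in the rhomboideus, 25862 in the trapezius, 15592 in the extensor digitorum communis, 12907 in the extensor digitorum lateralis and 8627 in the omohyoideus. In the MYH1-high muscles it ran from 862 CPM in the extensor carpi radialis over a median of 8689 to 12440 CPM in the infraspinatus. The omohyoideus thus had little MYH1 without a high MYH7 level, while the other MYH1-low muscles lay above all 13 MYH1-high muscles. MYH7 was a DEG without the extensor carpi radialis (adjusted p = 0.0341 from edgeR), without the pectoralis major (adjusted p = 0.0404) and within main group A (adjusted p = 0.0491). ATP2A2, the slow calcium pump, split the muscles differently, with 2266, 3141 and 1460 CPM in the rhomboideus, trapezius and omohyoideus, above the MYH1-high maximum of 1430 CPM, but 979 and 714 CPM in the extensor digitorum communis and lateralis. Its log2FC was 0.91 (adjusted p = 0.0538 from edgeR). ATP2A2 was a DEG without the extensor digitorum communis, the middle biceps femoris or the pectoralis major (adjusted p = 0.0376 to 0.0412 from edgeR), with 10 or more counts required in every library (adjusted p = 0.0438) and without both MYH1-low extensors (adjusted p = 0.0339). TNNC1, slow troponin C, which binds calcium, had a log2FC of 0.82 (adjusted p = 0.068), and was a DEG without the omohyoideus (adjusted p = 0.0377 from edgeR) or the extensor carpi radialis (adjusted p = 0.0366). ATP2A2 and TNNC1 were DEGs in DESeq2, with a log2FC of 0.93 and 0.85. ACTN2, MYOM1 and MYBPC1, structural proteins of the sarcomere, had log2FC values of 0.36, 0.40 and 0.45 and did not pass.

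**Figure D3:**
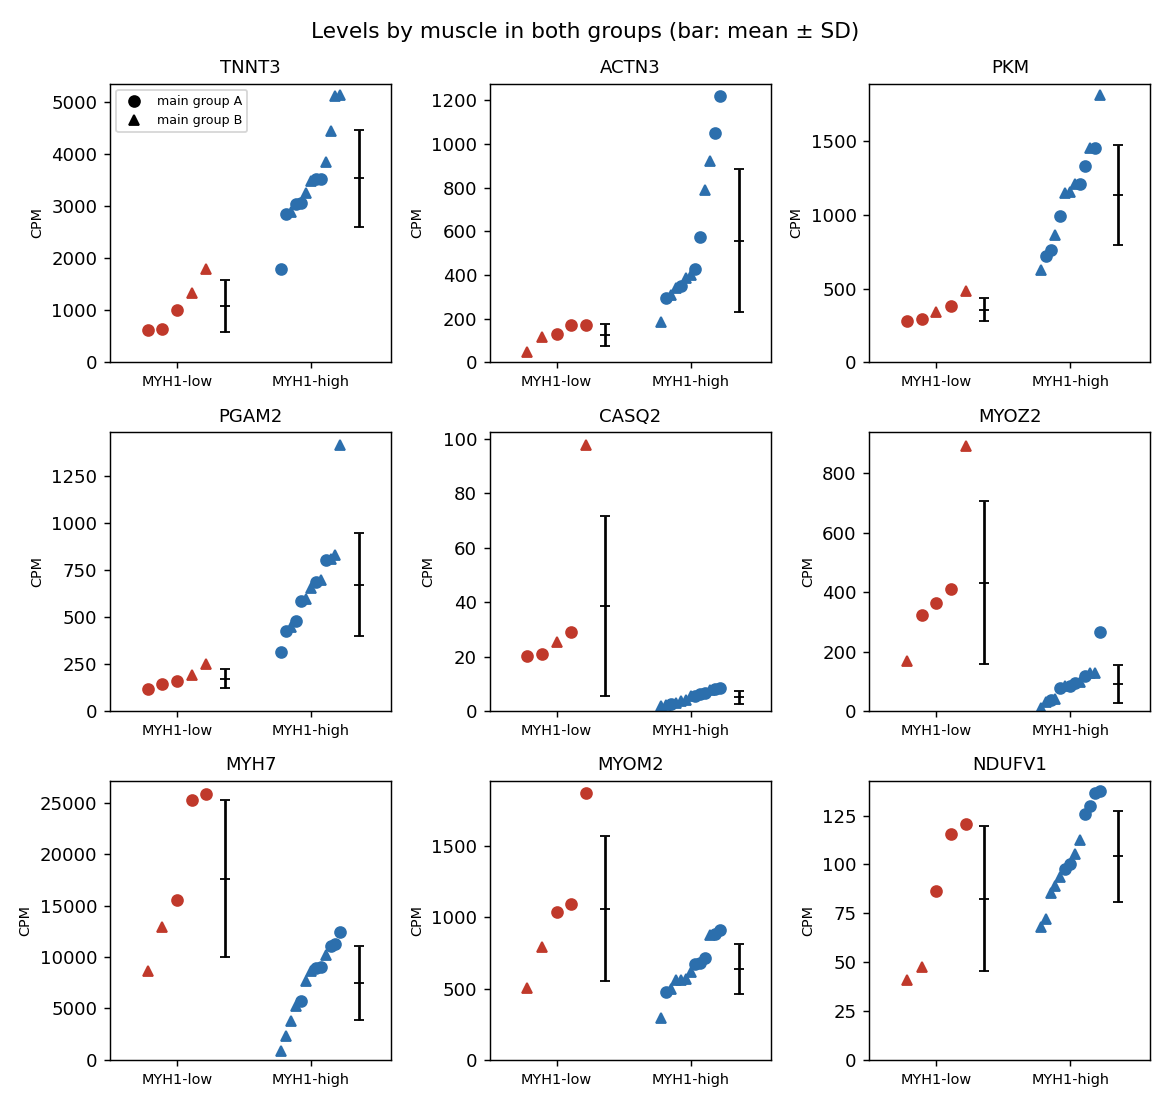
CPM of 9 genes in each muscle, MYH1-low in red and MYH1-high in blue, ordered by level within a group, with circles for main group A, triangles for B and the mean ± SD beside them. TNNT3, ACTN3, PKM, PGAM2 and CASQ2 show no overlap between the groups, while MYOZ2, MYH7, MYOM2 and NDUFV1 do.

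Glycolysis enzymes were lower in the MYH1-low muscles, except for 2 that moved the other way. All 10 genes of this list were DEGs, 8 lower and 2 higher, against 2.74% and 2.79% of all genes tested, with a median log2FC of -1.31. Within main group B alone 0 of the 10 passed. Without the 3 MYH1-low muscles of A, where the contrast again comes from B alone, 1 passed. In 7 of the lower genes the groups did not overlap, as in 0.607% of all genes tested with the MYH1-low muscles below. The study had chosen this list from differences between its subgroups, which include both subgroups of MYH1-low muscles, so the count is no independent evidence of its direction.

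The lower enzymes span the pathway from GPI, which converts glucose 6-phosphate to fructose 6-phosphate, to PKM, the last step, which yields pyruvate. PGAM2, the muscle phosphoglycerate mutase, had the most negative log2FC among them, -1.91 (SE 0.25, adjusted p = 0.00016 from edgeR). It stood at 158 CPM in the rhomboideus, 142 in the trapezius, 117 in the extensor digitorum communis, 249 in the omohyoideus and 191 in the extensor digitorum lateralis, against 313 to 1416 CPM in the MYH1-high muscles. ENO3, the muscle enolase, followed with 555 ± 134 CPM (SD, n = 5) against 1958 ± 570 CPM (SD, n = 13) and a log2FC of -1.80. PKM stood at 280 to 480 CPM against 625 to 1813 CPM, a log2FC of -1.65 (SE 0.23, adjusted p = 0.000318 from edgeR). The rhomboideus and trapezius were the lowest 2 muscles for PKM and ENO3 and the omohyoideus the highest of the 5.

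ALDOA, the muscle aldolase, was nearly level among the MYH1-low muscles, at 2363, 2523, 2715, 2679 and 3103 CPM in the rhomboideus, trapezius, extensor digitorum communis, omohyoideus and extensor digitorum lateralis. The MYH1-high muscles held 4446 to 12798 CPM, and the log2FC was -1.58 (SE 0.24, adjusted p = 0.000589 from edgeR). PGK1, PFKM and GPI, which encode phosphoglycerate kinase, the muscle phosphofructokinase and glucose 6-phosphate isomerase, had log2FC values of -1.35, -1.27 and -1.14 without overlap. TPI1, triose phosphate isomerase, had one of -0.98, with the omohyoideus at 141 CPM just above the 135 CPM of the biceps brachii. TPI1 was no DEG within main group A (adjusted p = 0.0749 from edgeR) or without the 2 MYH1-low extensors (adjusted p = 0.0559).

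The higher genes were ALDOC and PFKL, the brain type of aldolase and the liver type of phosphofructokinase. ALDOC stood at 12.3 CPM in the rhomboideus, 6.96 in the trapezius, 6.06 in the extensor digitorum communis, 2.41 in the omohyoideus and 12.4 in the extensor digitorum lateralis, which is 107 to 467 counts. The MYH1-high muscles held 0.237 to 3.88 CPM, or 8 to 166 counts, and only the omohyoideus lay within that range. The log2FC of ALDOC was 2.16 (SE 0.39, adjusted p = 0.00233 from edgeR). PFKL stood at 11.9 CPM in the omohyoideus and at 23.7 to 32.8 CPM in the other MYH1-low muscles, against 6.06 to 18.6 CPM, with a log2FC of 1.09 (SE 0.21, adjusted p = 0.00324 from edgeR). Without the 2 MYH1-low extensors neither ALDOC (adjusted p = 0.0677 from edgeR) nor PFKL (adjusted p = 0.0724) was a DEG. Neither passed within main group B (adjusted p = 0.267 and 0.224 from edgeR) or without the 3 MYH1-low muscles of A (adjusted p = 0.145 and 0.198). The lower enzymes likewise did not pass within B nor, except for PGAM2, without those muscles of A.

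Ratios of related genes within a library do not depend on scaling between libraries. The log2 ratio of ALDOC to ALDOA counts was -10.12 to -7.59 in the MYH1-low and -15.40 to -10.78 in the MYH1-high muscles. For TNNT1 over TNNT3 it was -0.48 to 1.38 against -4.20 to -1.26, and for CASQ2 over CASQ1 -4.36 to -1.90 against -8.15 to -5.58. The groups did not overlap either for ATP2A2 over ATP2A1, ACTN2 over ACTN3, MYBPC1 over MYBPC2 and MYOZ2 over MYOZ1. In each of these pairs except the last, however, the member from the slow twitch list alone had not passed. For PFKL over PFKM, 1 MYH1-high muscle, the infraspinatus at -5.50, lay above the omohyoideus at -5.84. For MYOM1 over MYOM2 the ranges lay on top of each other, at -0.19 to 1.17 and 0.14 to 1.5. These pairs were chosen after their values were seen and carry no test, and a ratio shows unequal levels without saying which member differs.

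**Figure D4:**
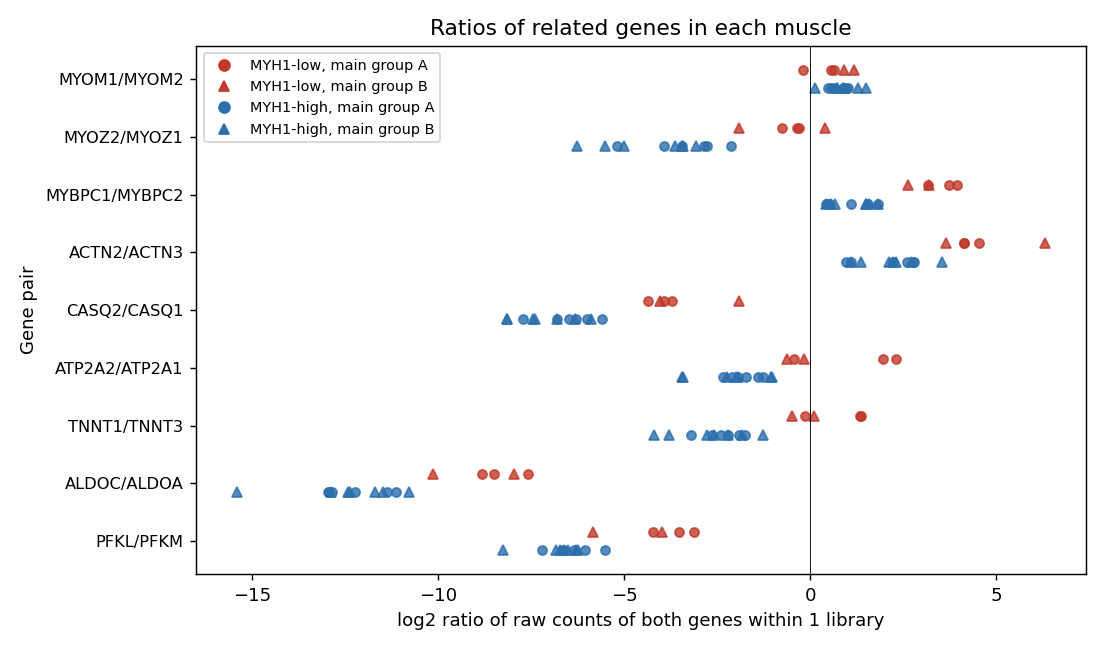
log2 ratio of the raw counts of 9 gene pairs within each library, MYH1-low muscles in red and MYH1-high in blue, with circles for main group A and triangles for B. The groups are separate in 7 pairs, overlap by 1 muscle in PFKL/PFKM and overlap broadly in MYOM1/MYOM2.

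Oxidative phosphorylation genes were lower as well, by less and unevenly across the MYH1-low muscles. Of 10 genes, 6 were lower DEGs, against 2.74% of all genes tested, none was a higher DEG and 4 did not pass. The median log2FC of the 10 genes was -0.66. With body region as covariate 2 remained, NDUFA8 and UQCR11, and 0 passed within main group A, within B or without the 2 MYH1-low extensors. This list too was chosen by the study from differences among subgroups of these libraries.

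NDUFA8, a subunit of complex I of the respiratory chain, was the only one without overlap, with 26.8 to 47.2 against 50.7 to 87.9 CPM and a log2FC of -0.77 (SE 0.16, adjusted p = 0.00548 from edgeR). COX7A1, the muscle form of a cytochrome c oxidase subunit, had a log2FC of -0.90 (SE 0.24, adjusted p = 0.0294 from edgeR) and 68.8 to 128 against 112 to 365 CPM. NDUFS8 and NDUFS7, further subunits of complex I, had log2FC values of -0.78 and -0.62. UQCR11, a subunit of complex III, and CYB5A, a cytochrome b5, had values of -0.73 and -0.70. Of the 6, COX7A1, NDUFS8, NDUFS7, UQCR11 and CYB5A were no longer DEGs without the extensor digitorum lateralis, and the same 5 were lost without the extensor digitorum communis or without the omohyoideus. NDUFS7 was also lost with no covariate (adjusted p = 0.0549 from edgeR), without the supraspinatus (adjusted p = 0.0526), without the triceps brachii (adjusted p = 0.0539) and, by its log2FC of -0.55, without the vertebral biceps femoris. COX7A1 was lost without the triceps brachii (adjusted p = 0.0559 from edgeR). CYB5A was lost with DESeq2's size factors, with MYH1 left out before scaling and under both other filters on low counts (adjusted p = 0.0504 to 0.0527 from edgeR), and in 12 of the 18 fits that left out 1 muscle.

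NDUFV1, the subunit of complex I that binds NADH, shows the unevenness. It stood at 121 CPM in the rhomboideus and 115 in the trapezius, but at 86.4 in the extensor digitorum communis, 47.7 in the omohyoideus and 41.1 in the extensor digitorum lateralis. The MYH1-high muscles held 67.8 to 138 CPM, so the rhomboideus, trapezius and extensor digitorum communis lay inside their range and the omohyoideus and extensor digitorum lateralis below it. The log2FC of NDUFV1 was -0.13 within main group A and -1.01 within B, and the test of this difference in edgeR gave an unadjusted p of 0.00716 but did not pass after adjustment. MT-ND4L, a subunit of complex I encoded in the mitochondrial genome, had a log2FC of -0.11 within A and -1.03 within B, and COX5A one of -0.28 and -0.97. For these the test of the difference in edgeR gave an unadjusted p of 0.081 and 0.0617, and neither passed. Over all muscles none of NDUFV1, MT-ND4L, COX5A and COX4I1 passed, with log2FC values of -0.51, -0.50, -0.58 and -0.52. COX5A was a DEG without the biceps brachii, rhomboideus, trapezius or caudal biceps femoris (adjusted p = 0.0277 to 0.0465 from edgeR), and NDUFV1 without the rhomboideus (adjusted p = 0.0408) or without all 3 MYH1-low muscles of A (adjusted p = 0.0359).

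The mean log2 CPM of the list divided the MYH1-low muscles differently from NDUFV1. It was 6.31 in the rhomboideus and 6.28 in the trapezius, within the 6.16 to 7.10 of the MYH1-high muscles. It was 5.60 in the extensor digitorum communis, 5.60 in the omohyoideus and 5.64 in the extensor digitorum lateralis, below all of them. The glycolysis list did not divide the MYH1-low muscles in this way, at 7.20 to 7.51 against 7.66 to 8.85. The split of the MYH1-low muscles by the oxidative phosphorylation mean does not coincide with the main groups, since the extensor digitorum communis belongs to A.

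**Figure D5:**
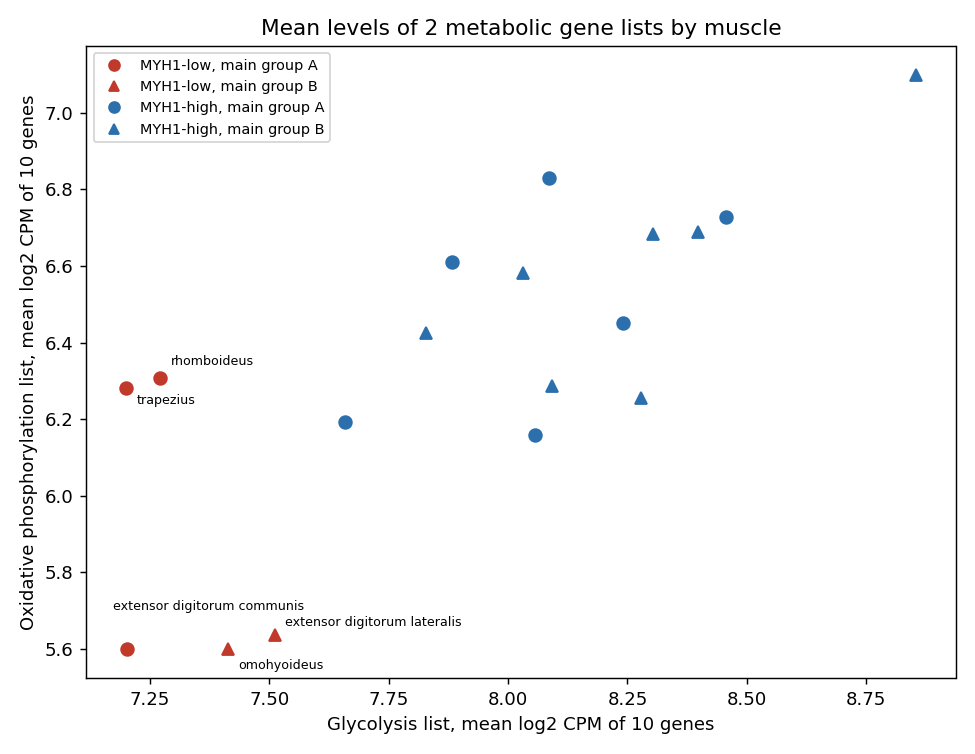
Mean log2 CPM of the 10 glycolysis genes (x axis) and of the 10 oxidative phosphorylation genes (y axis) in each muscle, MYH1-low in red and MYH1-high in blue, with circles for main group A and triangles for B. The 5 MYH1-low muscles lie to the left, 2 of them at 6.28 and 6.31 on the y axis and 3 at 5.60 to 5.64.

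Regulators of fatty acid oxidation and of muscle adaptation were not among the DEGs over all 18 muscles. None of the 6 genes of the fatty acid beta-oxidation list passed, with log2FC values from -0.31 for CPT1A, which brings long fatty acids into mitochondria, to 0.22 for IRS2, an insulin receptor substrate. In the muscle adaptation list, which also holds MYH7 and ATP2A2, none of 8 passed and the median log2FC was 0.13. Besides MYH7 and ATP2A2 under the settings named above, GTF2IRD1 passed without the 2 MYH1-low extensors, with a log2FC of 0.67 (adjusted p = 0.0206 from edgeR). Its other members ranged from -0.18 for NOS3, the endothelial nitric oxide synthase, to 0.39 for GTF2IRD1, a transcription factor. PRKACA, the catalytic subunit of protein kinase A, had a log2FC of -0.13. The study took genes of this list from its differences between A and B in the same libraries, so their levels by main group are no independent evidence. PRKACA stood at 42.8, 42.1 and 31.2 CPM in the 3 MYH1-low muscles of A and at 15.6 and 11.8 CPM in the 2 of B.

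Within main group A alone, 15 of the 26 named DEGs passed, and within B, where only 2 muscles were MYH1-low, 1 passed, which was CASQ2. All 26 kept the sign of their log2FC in both. Of all 737 DEGs, 201 passed within A and 42 within B. Over both main groups, 21 of the 26 named DEGs passed with body region as covariate and 12 without the 2 MYH1-low extensors. Without the 3 MYH1-low muscles of A, where the contrast comes from B alone, 4 passed. Of all 737 DEGs, 465, 131 and 114 passed in these fits. In fits of each main group on its own, the log2FC was 2.40 in A and 1.89 in B for ALDOC, -1.44 and -1.03 for PFKM, and -1.56 in both for ALDOA. ATP2A1 had -2.06 in A and -1.02 in B, with an unadjusted p of 0.0321 for the difference in a joint edgeR fit, which did not pass after adjustment. Over all 13335 genes, the difference of the MYH1-low minus MYH1-high effect between A and B passed an adjusted p of 0.05 in 0 genes with edgeR, which had 399 at an unadjusted p below 0.05, and in 0 with DESeq2, which had 412. Both are smaller shares of the genes than the 0.05 that chance gives on average. Of the 51 named genes, 3 had such an unadjusted p in edgeR (CASQ2, NDUFV1 and ATP2A1), which is near that share.

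Across the 18 muscles the named genes most like MYH1 were MYBPC2, ALDOA, PKM and GPI, with a Spearman rho of 0.92, 0.90, 0.90 and 0.89, all among the 10 highest of the genes tested. Within the 13 MYH1-high muscles alone these were 0.80, 0.74, 0.75 and 0.71. For CASQ2 the rho with MYH1 was -0.57 over 18 muscles and 0.07 within the 13, and for MYH7 it was -0.49 and -0.01. It was more negative for MYOZ2, at -0.80 and -0.55, and for FHL1, at -0.74 and -0.57. These are descriptions over libraries of 1 horse, and the values over 18 muscles include the gap that the limit made.

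In the muscles just above the limit, some of the other genes were low along with MYH1 and some were not, among 5 genes chosen after their values were seen. The gluteus superficialis and extensor digitorum longus had 2562 and 2316 CPM of MYH1, against a median of 10727 CPM, and their TNNT3 levels of 3487 and 3250 CPM were at or near the median of the MYH1-high muscles. MYBPC2 stood at 1463 and 1509 CPM in them, near the bottom of the range of 1371 to 3175 CPM, and ALDOA at 5816 and 6742 CPM, below the median of 7822. For PKM the gluteus superficialis was the lowest of the 13 at 625 CPM and the extensor digitorum longus stood at 1150 CPM, near their median of 1154. For ACTN3 the extensor digitorum longus was the lowest of the 13 at 185 CPM.

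Of the genes without a name, those with the largest log2FC among DEGs without overlap and with 10 or more counts in each library on the higher side were as follows. ENSECAG00000023616 had 31 to 178 counts in the MYH1-low and 0 to 19 in the MYH1-high muscles, so that it passed the filter on low counts through the MYH1-low muscles and had to differ. ENSECAG00000018230 was a more abundant gene, at 384 to 1550 CPM in the MYH1-low and 18.4 to 250 CPM in the MYH1-high muscles, and its log2FC was 4.18 (SE 0.46, adjusted p = 4.38e-05 from edgeR). ENSECAG00000009524 was lower, with 1.83 to 17.5 against 56.4 to 112 CPM and a log2FC of -3.19 (SE 0.35, adjusted p = 4.38e-05 from edgeR). ENSECAG00000013207 was lower with 0.857 to 1.93 against 2.18 to 14.7 CPM and a log2FC of -2.55.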

How the data were processed

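According to the study, ribosomal RNA was removed and TruSeq libraries were sequenced as paired reads on an Illumina HiSeq instrument. Reads were trimmed and aligned with STAR 2.5.2b in 2 passes to the horse genome EquCab2. The authors deposited raw read counts per Ensembl gene, 25239 genes in 18 muscles. The study states that the alignment provided the read counts, and the strand setting is not given in the sources used here, so overlapping and antisense genes cannot be told apart.

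The test was run in R 4.3.3 with edgeR 4.0.16, by filterByExpr, TMM, glmQLFit and glmQLFTest with main group as covariate and Benjamini-Hochberg adjustment over all genes but MYH1, which was fitted but not tested. Standard errors are the log2FC divided by the root of F. Log2 CPM values used a prior count of 2. Figures were drawn with matplotlib.

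The deposited table pairs no identifier with a name, and the reference table matched none. The 52 names were assigned by matching the deposited counts with counts displayed in a figure of the paper, over 9 muscles per gene. For 47 genes all 9 were equal, and for ALDOC, COX4I1, MT-ND4L, CPT1A and GTF2IRD1 at least 7 were. These names therefore rest on a picture and not on an annotation, and no printed value comes from it. Named genes were all members of the displayed lists, and beyond these the largest DEGs without overlap and with 10 or more counts in each library on the higher side, at most 2 per direction by identifier. The muscles, lists and tests were chosen with earlier results of these data known. The fast and slow twitch lists come from literature the study cites.

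On simulated counts with 200 genes changed by a log2FC of 1, edgeR recovered 166 with 11 false calls, and DESeq2 1.42.0 recovered 175 with 23. The muscles, in contrast, were grouped by the MYH1 level in the same libraries. The share of false calls among their DEGs was not tested. Alternatives were no covariate, body region as covariate, DESeq2, its size factors, MYH1 left out before scaling, other filters, a robust fit, an absolute log2FC above 1, each main group alone and leaving out each muscle.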

Additional observations from a re-analysis of the deposited data

Results flagged for a closer look

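Dixon's ratio (critical value 0.71 for 5 samples) was computed in the 5 MYH1-low muscles for 53 values, the CPM of 52 named genes and the total counts, and 2 stood apart, where chance gives about 1 in 20. CASQ2 at 97.54 CPM in the extensor digitorum lateralis stood far above the other 4 muscles, with a ratio of 0.885. MYOM1 at 946.4 CPM in the omohyoideus stood far below the others, with a ratio of 0.797. No named gene moved in opposite directions without overlap in main groups A and B.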

How the results depend on the processing

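The count of DEGs moved by more than 1.5 times from 737 (372 higher, 365 lower) under an absolute log2FC above 1 (300, with 184 and 116), in main group A only (235, with 133 and 102), in main group B only (55, with 51 and 4), and, both chosen after seeing the data, without subgroup A2 (144, with 102 and 42) and without the 2 low extensors (156, with 83 and 73). With body region as covariate 243 genes were lower. Leaving out 1 muscle gave 259 to 917 DEGs, 130 to 524 higher and 129 to 407 lower. The lowest counts came without the extensor digitorum lateralis and the highest without the omohyoideus, except the 407, which came without the extensor digitorum longus. CYB5A passed in 6 of these 18 fits. The number of genes whose MYH1-low minus MYH1-high effect differed between main groups A and B was 0 to 1 when 1 muscle was left out, with ENSECAG00000021552 without the extensor digitorum communis and ENSECAG00000007730 without the extensor digitorum lateralis, both named after their values were seen. All 26 named DEGs that were tested kept their sign under every alternative. Signs turned only in genes that had not passed. The log2FC was 0.0894 for PRKACA with no covariate, 0.0545 in main group A only and 0.0611 without the 2 low extensors. It was 0.0139 for NOTCH1 in A only, -0.205 for IRS2 and -0.0461 for JARID2 in B only, and -0.202 and -0.0415 without subgroup A2. Leaving out 1 muscle gave -0.0046 (without the rhomboideus) to 0.352 for IRS2 and -0.00076 (without the extensor digitorum communis) to 0.273 for FBXO32. For FBXO32 it was -0.0197 in B only, -0.0165 without subgroup A2 and -0.0903 without the 2 low extensors. The median of the muscle adaptation list was -0.0329 in B only and -0.029 without subgroup A2, where the contrast also comes from B alone. The cause of these changes was not tested. No paired analysis was possible because the labels give no replicate numbers, each muscle being 1 library.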
